A study of Rattus norvegicus with 12 samples.

Results

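The genes described here make and use glutathione and thioredoxin or remove superoxide and peroxides, together with the NRF2 regulators that control many of them. A list of 41 rat genes was matched by symbol to the probe sets of the array, and 40 had at least 1 probe set annotated to that gene alone. Those 40 genes held 51 probe sets, of which 48 had a mean scaled signal of 100 or more over the 12 arrays and were tested among 17694 probe sets. They are 40 of 10067 genes with a tested probe set of their own. Prdx1, a cytosolic peroxiredoxin, has no value because its probe set is annotated to several genes. Beyond the symbol, the choice used brightness only. The dimmest probe set inside the limit was that of Gsta1, at a mean of 103.3, and the brightest outside it was a second probe set of Gpx4, at 67.5. Gsta1 and Sod3 passed although at least 1 of their group means was under 100.

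RNA came from scraped mucosa of Belgrade rats, a strain that carries a recessive mutation (b) in Slc11a2, the gene of the intestinal iron transporter DMT1. The groups were b/b jejunum, +/b jejunum, b/b duodenum and +/b duodenum, with 3 arrays each, and every rat carried at least 1 b allele. Each array held RNA of 1 group of rats, whose size the labels used here do not give, and each of the 6 groups of rats gave both segments. The labels used here give no age, sex, diet or treatment, and the +/b duodenum samples carry the label +b.

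Glutathione is built by glutamate-cysteine ligase (Gclc, Gclm) and glutathione synthetase, spent by glutathione peroxidases on hydrogen peroxide and lipid peroxides and by glutathione transferases on electrophiles, and restored by glutathione reductase. Thioredoxin reduces protein disulfides and peroxiredoxins and is restored by thioredoxin reductase. NRF2 (Nfe2l2), held back by KEAP1, binds antioxidant response elements and raises transcription of many of these genes. The small intestine meets food-derived peroxides, electrophiles and iron, which can drive lipid peroxidation.

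Signals are the authors' intensities after each array was scaled to a 2% trimmed mean of 500, and changes are differences of log2(signal + 16), given with the standard error (SE) of a limma fit over all 12 arrays. The number of arrays, 3 a group, limits the precision. The median signal of an array was 108.4 to 181.5, and enterocyte markers (8 of 10 on the array) summed to 143870 or more on every array of this mucosa. Replicate 1 of b/b duodenum was the least like the others (median Spearman correlation 0.836, against 0.875 to 0.917 for the rest). The +/b duodenum replicates 2 and 3 had been deposited at trimmed means of 51.6 and 126.6, where the other 10 arrays had 500.2, and were multiplied by 9.69 and 3.95. The member probe sets were bright, with a median signal of 2644 against 400.5 over all probe sets tested, and their residual SD was 0.38 on the log2 scale, as was that of all.

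Between b/b and +/b rats, 0 of the 48 probe sets passed the test in either segment. Between jejunum and duodenum, 0 of 48 passed in either genotype alone. A segment contrast averaging both genotypes was added after the values had been seen, and no genotype contrast averaging both segments was run. In the averaged segment contrast Txn1, Txnrd1, Glrx and Gpx4 were called, lower in jejunum by 0.68 to 0.86 on the log2 scale. As deposited, before rescaling, 2 +/b duodenum arrays had lower trimmed means, and the median change over all probe sets was 0.84. There the averages of these 4 genes were 0.02 to 0.19, below that median. With rescaling, 12 of 40 genes, by their brightest probe set, lay lower in jejunum in all 6 groups of rats, paired by replicate number. Over all member probe sets it was 13 of 48, against 4.85% of all.

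The starts of these genes were searched for 2 motifs, the antioxidant response element core, which NRF2 binds, and the GC box, which Sp1-family factors bind. RefSeq (build GRCr8) gave a window from 250 bases before to 50 bases after a transcript start for 34 of the 41 genes. The core TGACNNNGC was searched on both strands and stood in 8 of 34 windows (23.5%), against 12.5% of 21851 protein-coding windows. These 8 belonged to Gpx2, Gclm, Prdx4, Prdx5, Sod2, Nfe2l2, Gsta1 and Gstp1. The GC box GGGCGG, also on both strands, stood in 25 of 34 windows (73.5%), against 41.8%. In the stretches printed here no core overlapped a GC box. A motif on the opposite strand appears as its reverse complement. Such a match is a description of letters only.

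The 250 bases before the start of Gpx2 (chr6:101230034-101230283, minus strand) and of Gclm (chr2:213031885-213032134, plus strand) are shown because each holds the core, in capitals, 13 and 172 bases before the start.
Gpx2: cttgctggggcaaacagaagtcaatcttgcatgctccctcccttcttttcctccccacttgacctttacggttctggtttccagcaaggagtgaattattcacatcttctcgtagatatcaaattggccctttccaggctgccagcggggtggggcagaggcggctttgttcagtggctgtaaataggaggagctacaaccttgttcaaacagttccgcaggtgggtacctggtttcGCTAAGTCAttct
Gclm: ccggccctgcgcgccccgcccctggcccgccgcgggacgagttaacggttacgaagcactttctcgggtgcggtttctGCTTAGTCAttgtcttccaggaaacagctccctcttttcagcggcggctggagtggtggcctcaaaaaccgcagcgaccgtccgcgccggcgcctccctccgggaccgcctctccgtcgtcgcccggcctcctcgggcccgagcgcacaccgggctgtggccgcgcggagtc

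The same stretch of Txn1 (chr5:77519686-77519935, minus strand) and Gpx4 (chr7:10303630-10303879, minus strand) is shown because both genes were lower in the jejunum. Each holds 4 GC boxes, in capitals, a pair of which shares 1 base, and no core.
Txn1: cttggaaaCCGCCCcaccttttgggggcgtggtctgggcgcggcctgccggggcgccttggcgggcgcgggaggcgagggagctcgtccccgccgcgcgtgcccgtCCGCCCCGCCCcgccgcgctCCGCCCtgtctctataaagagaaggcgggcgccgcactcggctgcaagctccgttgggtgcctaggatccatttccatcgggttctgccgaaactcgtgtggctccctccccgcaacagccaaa
Gpx4: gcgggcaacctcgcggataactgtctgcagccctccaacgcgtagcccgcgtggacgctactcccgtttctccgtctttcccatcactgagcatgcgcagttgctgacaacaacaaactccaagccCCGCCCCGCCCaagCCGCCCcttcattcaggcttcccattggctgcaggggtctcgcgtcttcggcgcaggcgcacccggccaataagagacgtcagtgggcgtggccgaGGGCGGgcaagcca
The window of Glrx held 1 GC box and that of Txnrd1 none, and neither held the core. Both of those windows lie at a start inside the annotated gene, and they are not printed. The window of Txn1 goes on past its annotated start with the letters atg, a start codon. Its printed stretch may therefore hold transcribed bases.

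The first comparison asked whether b/b rats differ from +/b rats in these genes. In the duodenum 0 of 48 probe sets passed a limma adjusted p of 0.05, while 7 of 17694 did (0.0396%), and the smallest adjusted p among the genes was 0.768. At an unadjusted p under 0.05 there were 3 member probe sets, 1 higher in b/b (2.5% of all) and 2 lower (3.67% of all). The groups of 3 arrays did not overlap for those same 3, against 3.18% of all higher and 5.53% lower. The median change of the 40 genes was 0.05, beside -0.05 over all probe sets, and 15 of 40 genes lay below 0, against 55.5% of all. The 95% interval stayed within a 2-fold change in either direction for 32 of 40 genes, and for the other 8 a 2-fold change lay within the interval.

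The lowest of these changes was that of Gsta1, an alpha-class glutathione transferase that also reduces lipid peroxides. Its signals were 17.6, 3.05 and 139.7 in b/b duodenum, against 147, 175 and 196 in +/b duodenum. Every b/b duodenum array lay below every +/b one, b/b replicate 3 by little, and the change was -2.02 ± 0.70 (limma unadjusted p = 0.0124, adjusted p = 0.768). In the jejunum the signals were 20.6, 95.5 and 111 in b/b jejunum, against 99.8, 120.3 and 114 in +/b jejunum, and there the groups overlapped. This probe set is near the brightness limit, and the highest of its 12 signals was 196. Its means were 53.4 in b/b duodenum and 75.8 in b/b jejunum, against 172 in +/b duodenum and 112 in +/b jejunum. It thus passed the limit of 100 only through the groups in which it was high.

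Gstt1, a theta-class transferase that acts on small halogenated compounds, gave 245, 199 and 239.8 in b/b duodenum, against 38.9, 146 and 196 in +/b duodenum. The groups were separated by the gap between b/b replicate 2 and +/b replicate 3 alone, and the change was 0.97 ± 0.44 (limma adjusted p = 0.789). Without +/b duodenum replicate 1, the array of lowest signal, the change was 0.39. In the jejunum Gstt1 had 97.1, 124 and 93.3 in b/b jejunum, against 159, 122 and 149.9 in +/b jejunum, and these overlapped.

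Prdx4, the peroxiredoxin of the endoplasmic reticulum, had signals of 417, 476 and 652 in b/b duodenum, against 761, 773 and 696 in +/b duodenum. The b/b duodenum arrays were all lower, with a change of -0.54 ± 0.20 (limma adjusted p = 0.788). In the jejunum it had 566, 715 and 660.0 in b/b jejunum, against 786, 699.7 and 822 in +/b jejunum, with 1 b/b array above the lowest +/b array and a change of -0.25 ± 0.20. The highest of the duodenal changes was that of Sod3, the secreted superoxide dismutase, with 323, 96.6 and 92.4 in b/b duodenum, against 117, 92.0 and 3.44 in +/b duodenum. One high b/b array and 1 low +/b array set this change of 1.30 ± 0.73, which was 0.76 without b/b duodenum replicate 1 and 0.42 without +/b duodenum replicate 3. Its jejunal signals were 33.2, 154 and 110.3 in b/b jejunum, against 118, 108 and 72.7 in +/b jejunum, and they overlapped. The b/b duodenum mean of Sod3 was 171, and the other 3 group means were under 100, so it passed the brightness limit only through the group in which it was high.

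Gpx2, the glutathione peroxidase typical of gut epithelium, had 3442, 8409.9 and 8646 in b/b duodenum, against 4487, 3961 and 5649 in +/b duodenum. Among b/b duodenum arrays replicates 2 and 3 lay above every +/b array and replicate 1 below all of them, and the change was 0.44 ± 0.33 (limma adjusted p = 0.860). Without b/b duodenum replicate 1 it was 0.87 (limma adjusted p = 0.360). Nqo1, a quinone reductase and a standard NRF2 target, had the same pattern of arrays, with 428, 1616 and 1613 in b/b duodenum, against 829, 814 and 790.2 in +/b duodenum, and its change of 0.35 became 0.98 without that array (limma adjusted p = 0.335). In the jejunum Gpx2 had 2896, 5530.4 and 3147 in b/b jejunum, against 4777, 4212 and 3768 in +/b jejunum, which overlapped.

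**Figure D1:**
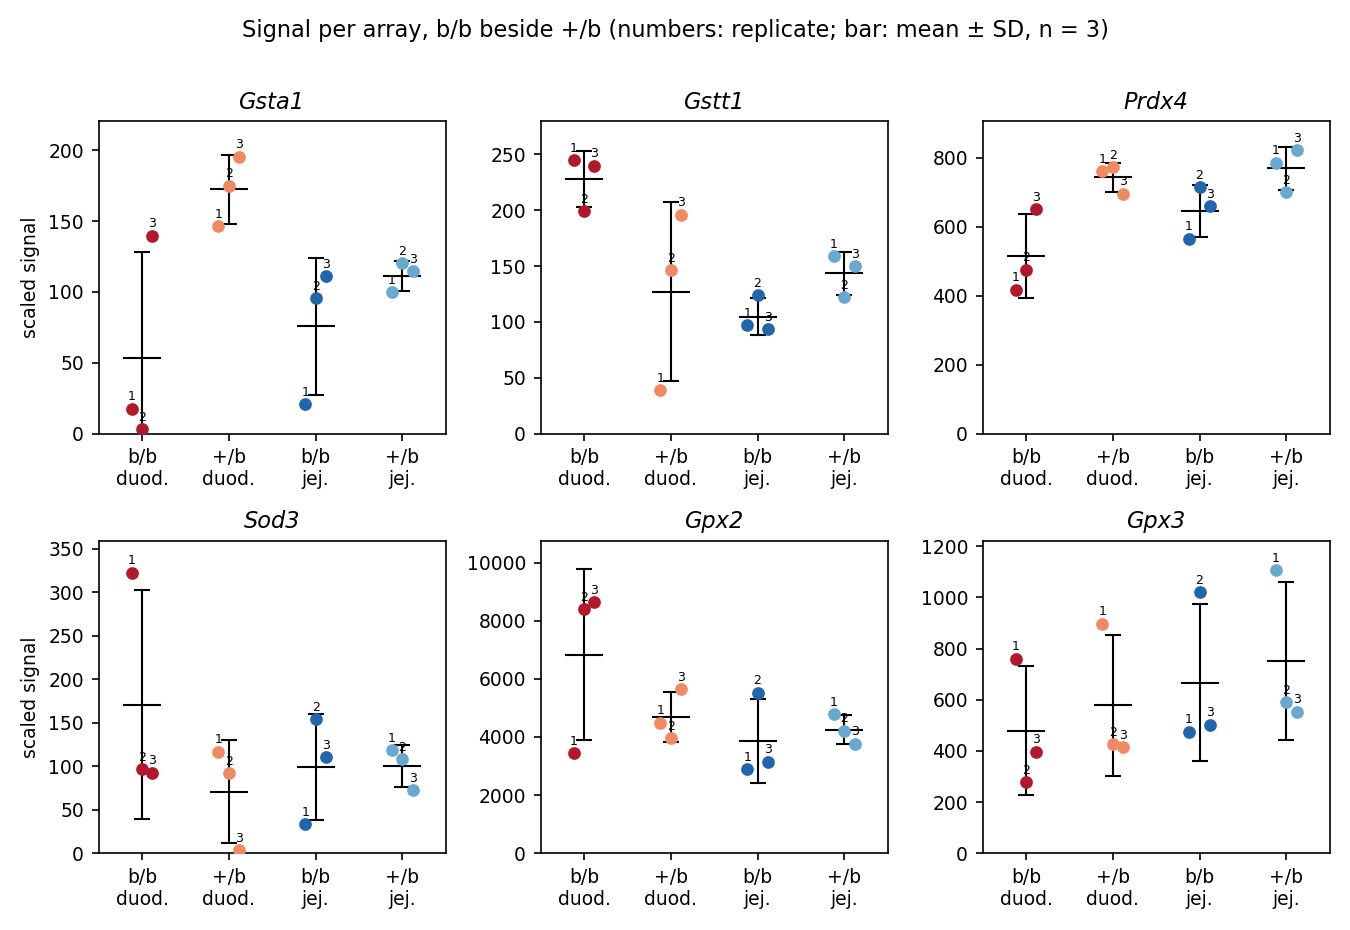
Scaled signal (y axis, linear, from 0) of 6 genes on each array, with b/b left of +/b in duodenum and then in jejunum; points are arrays numbered by replicate and bars are mean ± SD (n = 3). The b/b duodenum arrays of Gsta1 and Prdx4 lie below and those of Gstt1 above the +/b arrays, while b/b replicate 1 stands apart for Sod3 and Gpx2.

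In the jejunum 0 of 48 probe sets passed, against 6 of all (0.0339%), and 0 had an unadjusted p under 0.05, against 1.34% of all. The changes of the 40 genes ran from -0.66 to 0.52 with a median of -0.07, beside -0.03 over all probe sets, and 27 of 40 lay below 0, against 54.5% of all. The interval stayed within a 2-fold change for 32 of 40 genes. The groups did not overlap for 1 gene above (3.35% of all probe sets) and 2 below (4.54%). The gene above was Sqstm1, an autophagy adaptor that binds KEAP1, with 3438, 3699.8 and 3849 in b/b jejunum, against 3186, 3276 and 3047 in +/b jejunum and a change of 0.21 ± 0.16. Other tested probe sets of Sqstm1 overlapped there. Below were Gstt2, a theta-class transferase, with a change of -0.22, and Sod1. A second, dimmer probe set of Gstt2 went the other way, with a mean of 161 in b/b jejunum, against 154 in +/b jejunum.

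Sod1, the cytosolic copper-zinc superoxide dismutase, had 5637, 5916 and 6429 in b/b jejunum, against 8452, 6888 and 7019 in +/b jejunum. The b/b jejunum arrays were all lower, with a change of -0.31 ± 0.17 (limma unadjusted p = 0.0883, adjusted p = 1.000), and its duodenal signals of 7052, 7903 and 8379 in b/b duodenum, against 8636, 8453 and 8090 in +/b duodenum overlapped. Txnrd2, the mitochondrial thioredoxin reductase, had 100.4, 379 and 142 in b/b jejunum, against 314, 284 and 273 in +/b jejunum. Its b/b jejunum arrays held both the highest and the 2 lowest values, with a change of -0.66 ± 0.41. The duodenal signals were 345, 298 and 240.5 in b/b duodenum, against 452, 367 and 197 in +/b duodenum.

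The genes of glutathione supply gave intervals around 0 in both segments. Gclc, the catalytic subunit of the rate-limiting ligase, had 1589, 1659 and 1669.5 in b/b duodenum, against 1503, 1287 and 1930.3 in +/b duodenum. Its jejunal signals were 1324, 1422 and 2209 in b/b jejunum, against 1444, 1238 and 1329 in +/b jejunum, and both pairs of groups overlapped, with changes of 0.08 (95% interval -0.38 to 0.53) in duodenum and 0.27 (-0.19 to 0.72) in jejunum. A second, dimmer probe set of Gclc went the other way in duodenum, with a mean of 692 in b/b duodenum, against 942 in +/b duodenum. Slc7a11, the cystine importer, was dim, with 183, 45.3 and 147 in b/b duodenum, against 103, 75.3 and 143 in +/b duodenum. In the jejunum it had 198, 117 and 172 in b/b jejunum, against 120.2, 122 and 134 in +/b jejunum, with 2 b/b jejunum arrays above every +/b one. Ggt1, the brush border enzyme that cleaves extracellular glutathione, had 12278, 6836 and 5661 in b/b duodenum, against 9008, 7436 and 5945 in +/b duodenum. In the jejunum it had 10044, 6591 and 6043 in b/b jejunum, against 6758, 5607 and 4826 in +/b jejunum, and replicate 1 was the highest array of each of the 4 groups. Srxn1, which restores overoxidized peroxiredoxins, had 702, 1391 and 1811 in b/b duodenum, against 708, 1636 and 1476 in +/b duodenum. Its jejunal signals were 1183, 1567 and 1444 in b/b jejunum, against 525, 1199 and 1417 in +/b jejunum, and replicate 1 was the lowest array of every group. In the duodenum Sqstm1 had 3297, 3564 and 3009 in b/b duodenum, against 3016, 3553 and 3690.1 in +/b duodenum, with overlap.

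**Figure D2:**
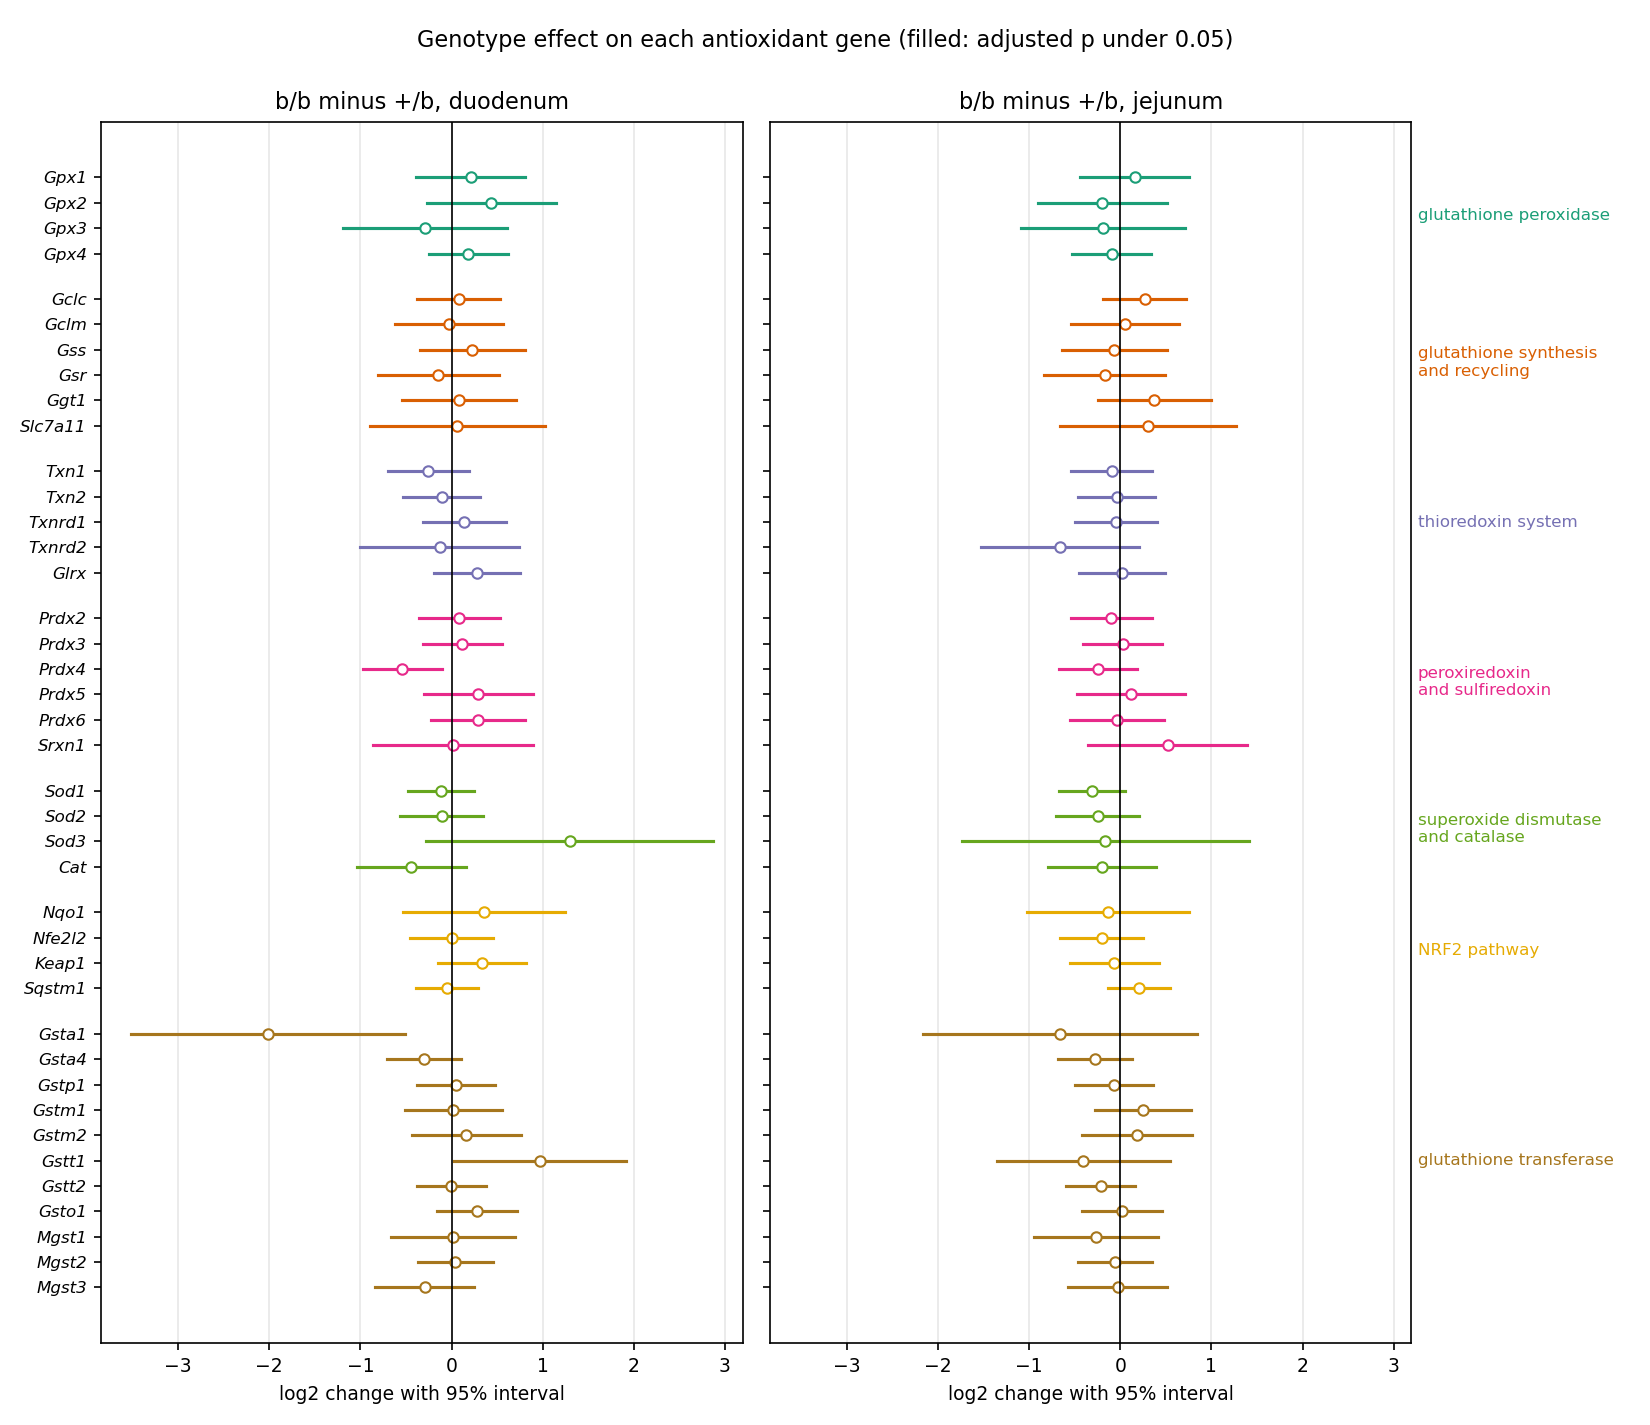
Log2 change with its 95% interval (x axis) of each of the 40 genes, b/b minus +/b, in duodenum (left) and jejunum (right), with genes in rows grouped by role. No point is filled, since no limma adjusted p was under 0.05, and changes run from -2.02 (Gsta1) to 1.30 (Sod3) in duodenum.

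Sums of some markers of other cells differed between the genotypes, a part of them in 1 segment only. Of 11 blood and reticulocyte genes, 7 were on the array, and their summed signal was 12583 to 17728 in b/b duodenum, against 1965 to 3583 in +/b duodenum. In the jejunum it was 10339 to 14442 in b/b, against 1982 to 3066 in +/b rats. Only 3 of these genes passed the brightness limit, with 3 higher in b/b duodenum, and 2 higher and 1 lower in b/b jejunum. Prdx2 and Cat are also abundant in red cells, and their b/b changes were 0.08 and -0.44 in duodenum and -0.10 and -0.20 in jejunum. Mast cell markers (4 of 5 on the array) summed to 408.4 to 1012 in b/b duodenum, against 1187 to 1836 in +/b duodenum, and overlapped in jejunum (1057 to 2045 in b/b, against 1570.3 to 1696 in +/b). Crypt markers (6 of 7) summed to 3739 to 5054 in b/b jejunum, against 5305 to 8233 in +/b jejunum, and overlapped in duodenum (2201 to 3304 in b/b, against 3228 to 6231 in +/b). Exocrine pancreas markers (14 of 15) summed to 1459 to 9109 in b/b duodenum, against 1297 to 189440 in +/b duodenum, the highest on +/b replicate 2. Of 13 measured, 13 were lower in b/b duodenum (median -1.04), and in jejunum 8 were higher and 5 lower, with 0 called in either segment. In bulk tissue fewer cells of a type and less RNA per cell cannot be told apart, and the part of these markers in the changes above was not tested.

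The second comparison set jejunum against duodenum within each genotype. In b/b rats 0 of 48 member probe sets passed in the limma fit that treats the 12 arrays as independent, against 135 of all (0.763%), and the smallest adjusted p was 0.0669, for Gpx4. At an unadjusted p under 0.05 there were 12, all lower in jejunum, against 3.5% of all probe sets lower at that level. In +/b rats 0 passed, against 10 of all (0.0565%), and 6 had an unadjusted p under 0.05, all lower, against 2.07% of all. The groups did not overlap for 10 genes lower and 1 higher in b/b jejunum, against 5.3% and 9.53% of all, and for 10 lower and 0 higher in +/b jejunum, against 4.71% and 6.1%.

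Since each group of rats gave both segments, the fit was repeated with the rat group as a block. Arrays of the same genotype and replicate number were taken as 1 rat group, which no label used here states. Then 6 of 48 passed in b/b rats, all lower in jejunum, against 1.26% of all called lower. They were Glrx (limma adjusted p = 0.00364), Txn1 (0.00538), Gpx4 (0.00829), Nqo1 (0.0153), Txnrd1 (0.0255) and Gsta4 (0.0493). With the rat group as a random block, and with the replicate number as a block, 4 passed each time, and Nqo1 (limma adjusted p = 0.0682 and 0.0745) and Gsta4 (0.0725 and 0.0533) did not. In +/b rats 1 passed, Txn1 (limma adjusted p = 0.00475), against 0.316% of all called lower.

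A contrast averaging the 2 genotypes was added after the values had been seen. On rescaled arrays it called 4 of 48 probe sets, all lower in jejunum, against 0.786% of all called lower, and 9 probe sets of 8 genes with the rat group as a block, against 2.18%. The median of the 40 genes was -0.19, beside 0.07 over all probe sets, and 29 genes were below 0, against 40.2% of all. By the brightest probe set, 12 genes lay lower in jejunum than in duodenum in all 6 groups of rats, paired by replicate number. They were Gpx4, Txn1, Txn2, Txnrd1, Glrx, Prdx2, Sod1, Sod2, Nqo1, Gsta4, Gstm2 and Gstt2. A second probe set was lower in all 6 for Glrx, but in 5 for Txnrd1 and in 3 for Gstt2. Over all member probe sets it was 13 of 48 (27.1%), against 4.85% of all. Gsto1, an omega-class transferase, was the 1 gene above in all 6, against 7.73% of all.

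The role group of thioredoxins, thioredoxin reductases and the glutaredoxin Glrx had the lowest median change of the role groups on rescaled arrays, -0.68. In it 5 of 5 genes lay below 0 and 3 were called, Glrx among them, against 0.786% of all probe sets called lower. Txn1, cytosolic thioredoxin, had signals of 16336, 16503 and 15682 in b/b and 17174, 18700 and 16047 in +/b jejunum, against 31399, 28956 and 23308 in b/b and 32622, 37837 and 29249 in +/b duodenum. The highest jejunal array stood at 18700 and the lowest duodenal one at 23308. The average change was -0.86 ± 0.15, or 1.81-fold lower in jejunum (limma adjusted p = 0.00846, and 0.000170 in the blocked fit). The change was -0.77 ± 0.21 in b/b and -0.94 ± 0.21 in +/b rats.

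Txnrd1, the cytosolic selenoenzyme that restores thioredoxin, had 3807, 3547 and 5491 in b/b and 4688, 3565 and 4893 in +/b jejunum, against 6239, 7851 and 7609.7 in b/b and 5836, 6413 and 7418 in +/b duodenum. The jejunal arrays were all below the duodenal ones, and the average change was -0.68 ± 0.15 (limma adjusted p = 0.0374, block 0.00534). Its second, dimmer probe set gave -0.31 ± 0.24 and was not called. Glrx, the glutaredoxin that removes glutathione from proteins, had 7273, 4987 and 5519 in b/b and 6309.9, 5448 and 5592 in +/b jejunum, against 13623, 11061 and 9035 in b/b and 11251, 7772 and 8654 in +/b duodenum. Again no jejunal array reached the lowest duodenal one, with an average change of -0.79 ± 0.15 (limma adjusted p = 0.0187, block 0.000619). A second probe set of Glrx gave -0.68 ± 0.26 and was called with the block (limma adjusted p = 0.0179). Txn2, mitochondrial thioredoxin, and Txnrd2 had average changes of -0.18 and -0.40 and were not called.

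Among glutathione peroxidases 1 of 4 was called. Gpx4, which reduces lipid hydroperoxides within membranes, had 4994, 4423 and 4523 in b/b and 5311, 5141 and 4466 in +/b jejunum, against 7784, 10656 and 7815 in b/b and 7902, 9244 and 6051 in +/b duodenum. Every jejunal array was below every duodenal array, and the average change was -0.76 ± 0.14, or 1.69-fold lower (limma adjusted p = 0.0148, block 0.00203). Gpx1, the ubiquitous cytosolic form, had 3640.4, 5359 and 3222 in b/b and 4012, 3808 and 2951 in +/b jejunum, against 4660.3, 5114 and 3380.4 in b/b and 4544, 4724 and 2409 in +/b duodenum. These overlapped, with an average change of -0.09 (95% interval -0.52 to 0.33). Gpx3, the secreted form, had 475, 1019.6 and 502 in b/b and 1107, 591 and 553 in +/b jejunum, against 760.4, 277 and 396 in b/b and 897, 425 and 413 in +/b duodenum. Its average was 0.44 ± 0.30, the highest of the 40 genes, and not called. Gpx2, listed above, had -0.77 ± 0.33 in b/b and -0.13 ± 0.33 in +/b rats. Without b/b duodenum replicate 1 the b/b change was -1.20 and was called (limma adjusted p = 0.0484).

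The 4 calls differed in how far they depended on single arrays. Txn1 kept an adjusted p under 0.05 in each of 12 removals of 1 array (0.0102 to 0.0341). Gpx4 lost it in 2, without b/b duodenum replicate 2 (0.0518) or b/b jejunum replicate 2 (0.0558). Glrx lost it in 4, without b/b duodenum replicate 2 (0.0595), b/b jejunum replicate 2 (0.0761) or 3 (0.0517), or +/b jejunum replicate 2 (0.0687), and Txnrd1 in 9, with adjusted p up to 0.135 without b/b jejunum replicate 2. With the 2 rescaled arrays left out, Glrx (0.0394) and Gpx4 (0.0484) passed while Txn1 (0.0636) and Txnrd1 (0.214) did not. On the values as deposited the average changes were 0.02 (Txn1), 0.11 (Gpx4), 0.08 (Glrx) and 0.19 (Txnrd1), each below the median of all probe sets, 0.84.

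**Figure D3:**
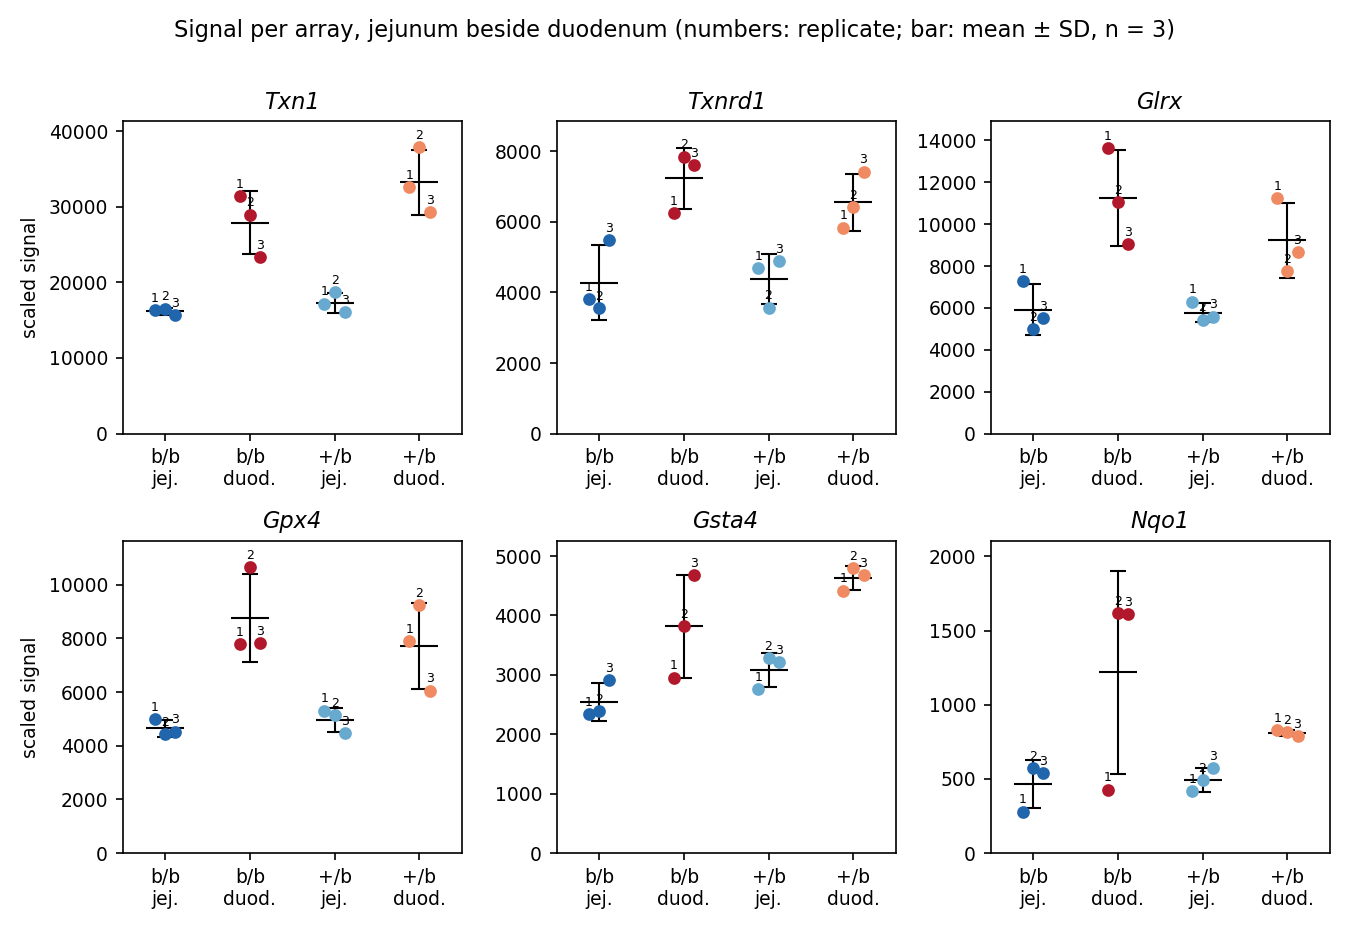
Scaled signal (y axis, linear, from 0) of 6 genes on each array, with jejunum left of duodenum in b/b and then in +/b rats; points are arrays numbered by replicate and bars are mean ± SD (n = 3). For Txn1, Txnrd1, Glrx and Gpx4 all jejunal points lie below all duodenal points of the same genotype, on rescaled arrays. On the values as deposited the average change of these 4 is 0.02 to 0.19, below the median of all probe sets, 0.84.

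Of the superoxide and peroxide enzymes beyond these, 0 of 4 dismutase and catalase genes were called without the block. Sod2, the mitochondrial manganese dismutase, had 1416, 2177 and 2455 in b/b and 2302, 2578 and 2145 in +/b jejunum, against 2446, 3387 and 2738 in b/b and 2842, 3321 and 3016 in +/b duodenum. With arrays of a genotype paired by replicate number, all 6 pairs had a lower jejunal signal. The average change was -0.45 ± 0.15 (limma adjusted p = 0.200, and 0.0357 with the rat group as a block). Sod1 averaged -0.28 ± 0.12 and was not called with the block either (limma adjusted p = 0.0941). Cat, catalase, had 6876, 3217 and 4965 in b/b and 5715, 5841 and 4999 in +/b jejunum, against 6126, 3792 and 3609 in b/b and 4657, 6649 and 6799.9 in +/b duodenum. These overlapped, with 0.01 (95% interval -0.41 to 0.43).

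Peroxiredoxins and sulfiredoxin had a median of -0.03 and 0 of 6 genes called. Prdx2, a cytosolic peroxiredoxin, had 1829, 2958 and 2849 in b/b and 2546, 2589 and 2864 in +/b jejunum, against 2403, 3366 and 3302 in b/b and 2614, 2947 and 2911 in +/b duodenum. The average change was -0.17 ± 0.15, and the arrays overlapped. Prdx6, which also has phospholipase activity, had 2609, 2777 and 2499 in b/b and 2561, 3296 and 2301 in +/b jejunum, against 3808, 5335 and 2504 in b/b and 3056, 2755 and 3299.9 in +/b duodenum. Its highest array was b/b duodenum replicate 2, and the average change was -0.33 ± 0.17. Prdx4 averaged 0.19 ± 0.14.

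Synthesis and recycling genes had 0 of 6 called and a median of -0.17. Gclm, the modifier subunit of the ligase, had 1866, 1072 and 2033 in b/b and 1824, 1449.5 and 1374 in +/b jejunum, against 1702, 1581 and 2298 in b/b and 1896, 1354 and 2574 in +/b duodenum. The groups overlapped, with -0.24 ± 0.20. Gsr, glutathione reductase, had 1377, 1147 and 1086 in b/b and 1876, 1258 and 1040.1 in +/b jejunum, against 1186, 1245 and 626 in b/b and 1391, 713 and 1262 in +/b duodenum. Its average change was 0.31 ± 0.22, above 0, and its groups overlapped too. Gclc averaged -0.12 and Ggt1 -0.23.

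Among NRF2 pathway genes Nqo1 had 280.1, 573 and 541 in b/b and 417, 491 and 573 in +/b jejunum, against 428, 1616 and 1613 in b/b and 829, 814 and 790.2 in +/b duodenum. The +/b jejunum arrays all lay below the +/b duodenum arrays, while b/b duodenum replicate 1 was below 2 of the b/b jejunum arrays. The average change was -0.96 ± 0.29 (limma adjusted p = 0.163, and 0.00531 in the blocked fit). Without b/b duodenum replicate 1 the average was -1.27 (limma adjusted p = 0.00301) and the b/b change -1.83 (limma adjusted p = 0.00633), against -1.20 with it. Nfe2l2 had 4301, 4118 and 4938 in b/b and 4975, 4852 and 5507 in +/b jejunum, against 4687, 6409 and 7306 in b/b and 6069, 4772 and 7516 in +/b duodenum. The average change was -0.34 ± 0.15 and was not called (limma adjusted p = 0.377, block 0.0972). Keap1 had 712, 619.7 and 711 in b/b and 616, 736 and 793 in +/b jejunum, against 748, 646 and 1084 in b/b and 558, 809 and 573 in +/b duodenum. It averaged -0.04 (95% interval -0.39 to 0.30), and Sqstm1 averaged 0.03.

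Of 11 glutathione transferases 8 lay below 0 and 0 were called without the block. Gsta4, which conjugates the lipid peroxidation product 4-hydroxynonenal, had 2337, 2387 and 2907 in b/b and 2755, 3279 and 3217 in +/b jejunum, against 2952, 3825 and 4679.6 in b/b and 4416, 4799.8 and 4677 in +/b duodenum. Within each genotype the jejunal arrays were all lower, with an average of -0.58 ± 0.13 (limma adjusted p = 0.0520, and 0.00521 with the block). Gstm2, a mu-class transferase, averaged -0.62 ± 0.20 (limma adjusted p = 0.182, block 0.0313). Gstp1, the pi-class transferase abundant in epithelia, had 13021, 13639 and 11682 in b/b and 15749, 13937 and 10925 in +/b jejunum, against 17514, 17833 and 14323 in b/b and 15249, 16121 and 16356 in +/b duodenum. In b/b rats the jejunal arrays were all lower, in +/b rats they overlapped, and the average was -0.31 ± 0.14 (limma adjusted p = 0.392, block 0.0989). The dim Gsta1 averaged 0.12.

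**Figure D4:**
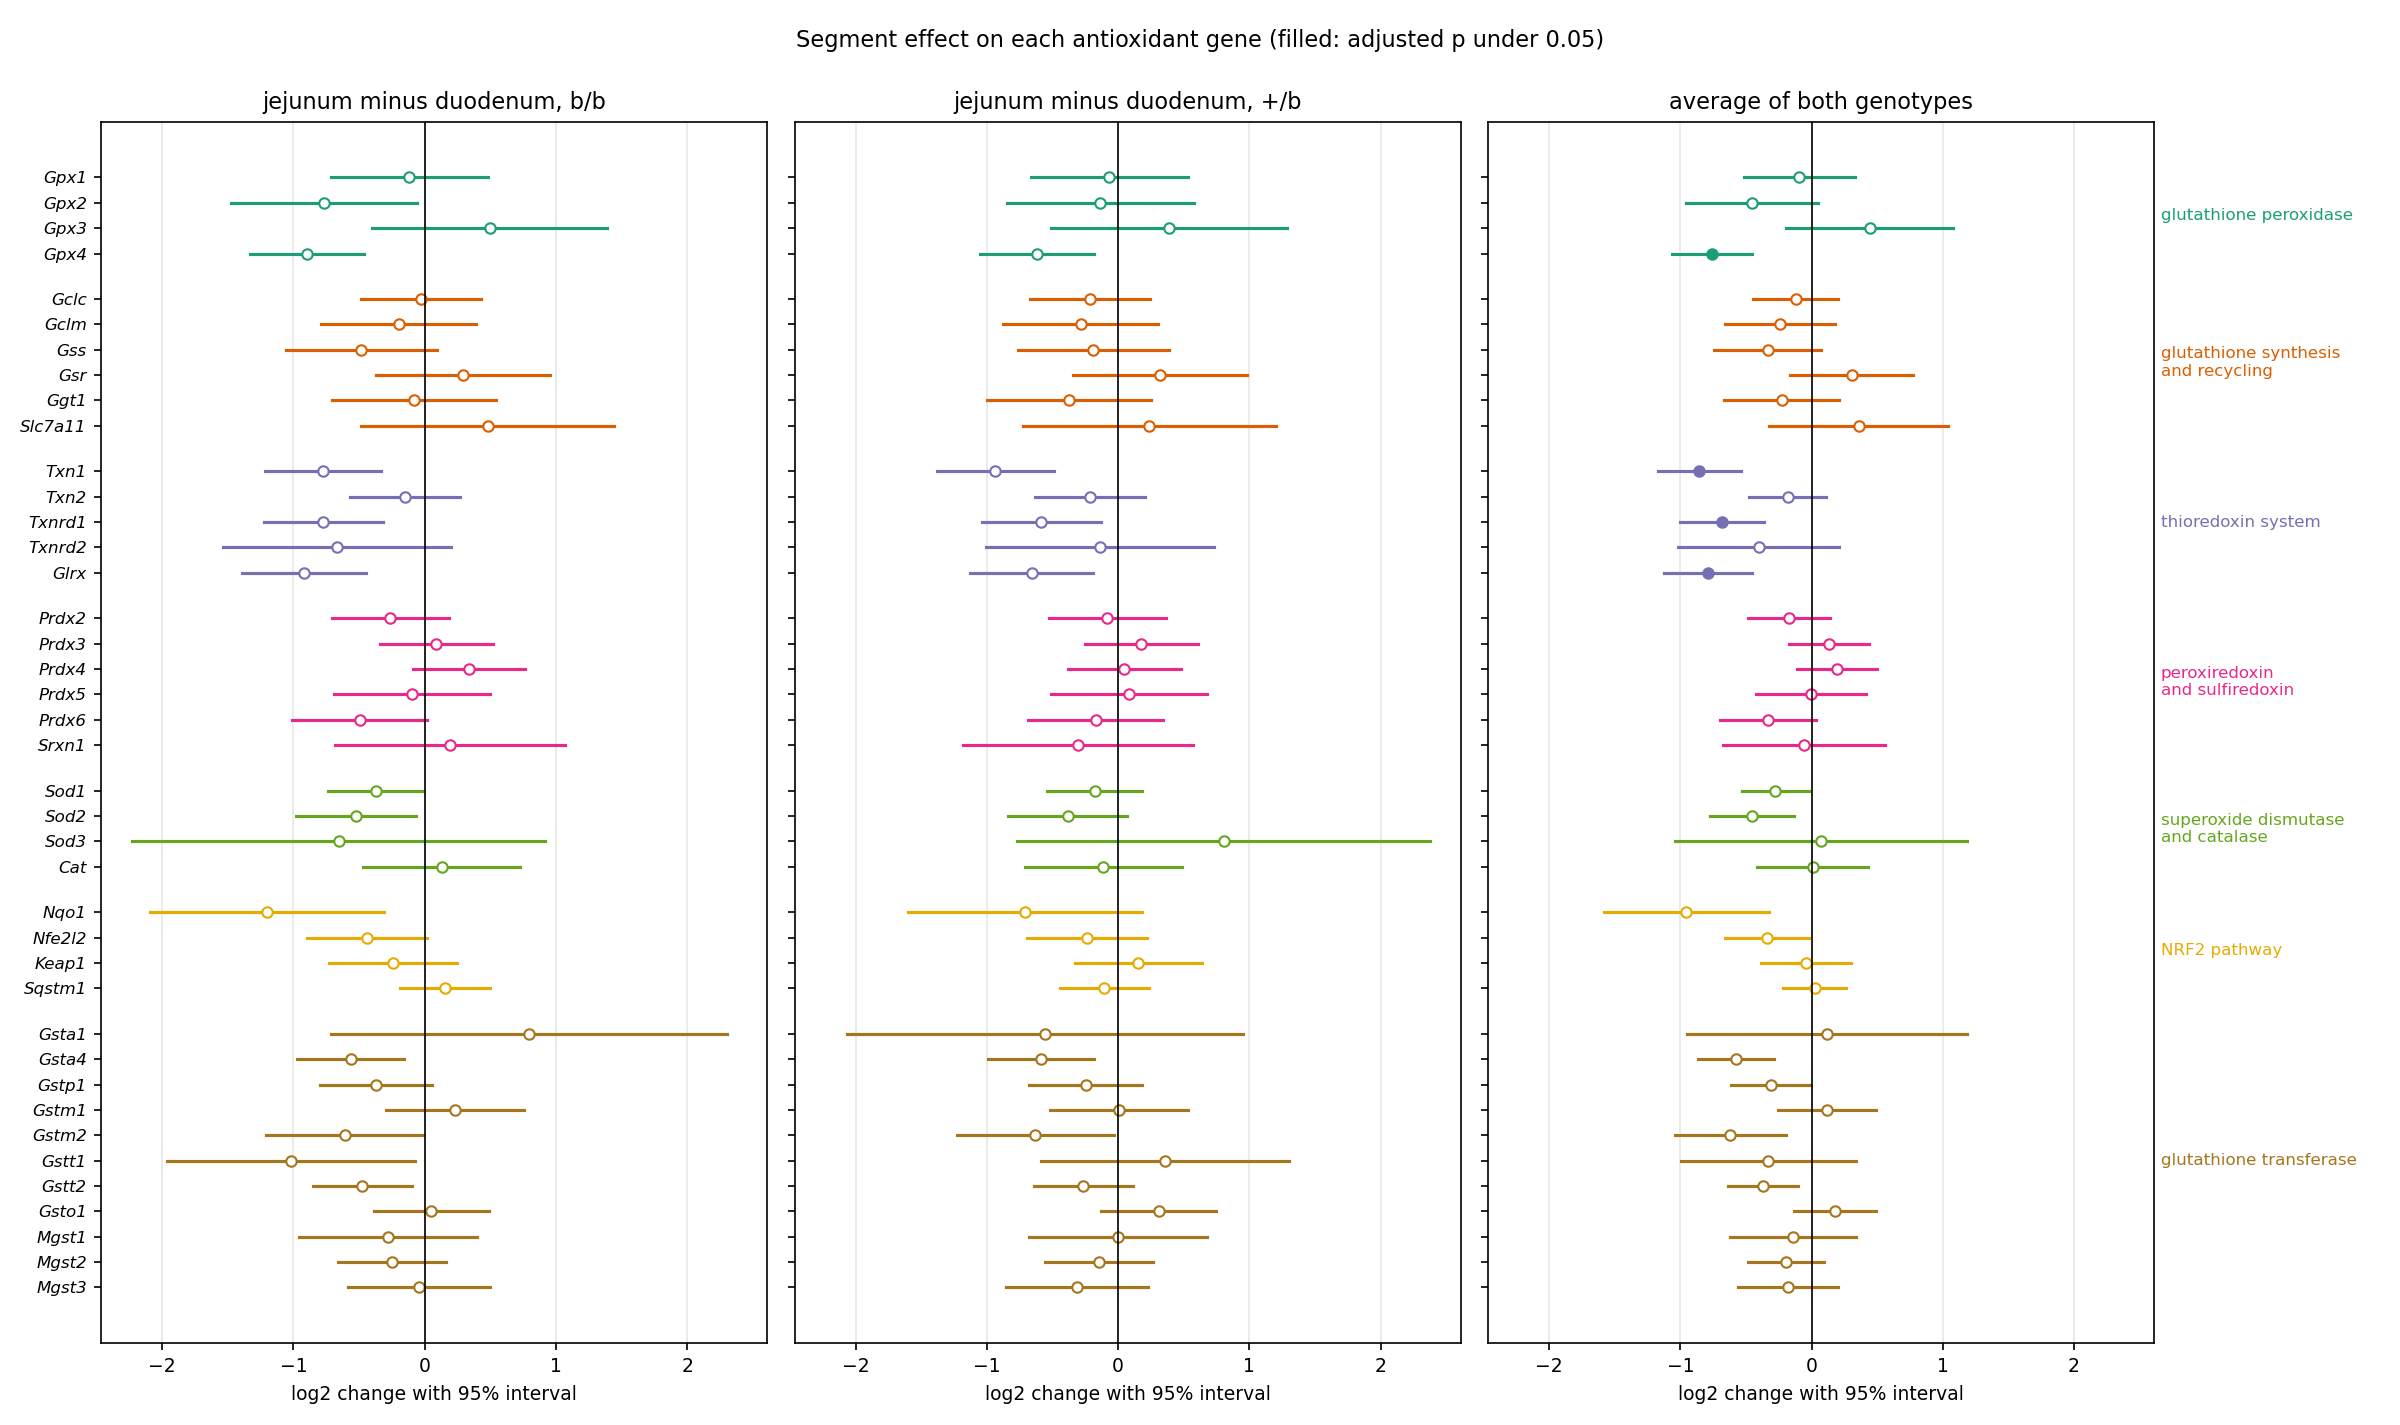
Log2 change with its 95% interval (x axis) of each of the 40 genes, jejunum minus duodenum in b/b rats, in +/b rats and averaged, with genes in rows grouped by role. Txn1, Txnrd1, Glrx and Gpx4 are filled (adjusted p under 0.05) in the average only. On the values as deposited, without rescaling, these 4 averages lie between 0.02 and 0.19, below the median of all probe sets, 0.84.

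The third comparison tested whether the genotype change differed between segments. The limma fit called 0 of 48, as it did 0 of all (0%). At an unadjusted p under 0.05 there was 1, below 0, against 0.723% of all. It was Gstt1, with a difference of -1.38 ± 0.62 (limma unadjusted p = 0.0442, adjusted p = 1.000). Without +/b duodenum replicate 1 that difference was -0.79. For Txn1 the difference was 0.16 (95% interval -0.47 to 0.79) and for Gpx4 -0.28 (-0.89 to 0.33), and both intervals include 0. The interval stayed within a 2-fold change for 23 of 40 genes.

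A further 4 lists of the pathway were counted in the averaged segment contrast. Of 17 NRF2 partners and further reported targets, 14 were measured. On rescaled arrays 3 were called, all lower in jejunum, against 0.786% of all probe sets called lower. Akr7a3, an aldehyde reductase, averaged 11068 ± 1155 in b/b and 11111 ± 1532 in +/b jejunum, against 18168 ± 2414 in b/b and 18059 ± 734 in +/b duodenum (SD, n = 3), a change of -0.71 ± 0.14 (limma adjusted p = 0.0187). Abcc2, an apical exporter of glutathione conjugates, changed by -0.80 ± 0.17 (limma adjusted p = 0.0328), and Ugdh, which makes UDP-glucuronic acid, by -0.67 ± 0.15 (limma adjusted p = 0.0462). Hmox1, the inducible heme oxygenase, had -1.003 ± 0.37 and was called only in the fit that blocked on rat group (limma adjusted p = 0.261, block 0.0116).

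Of 37 other genes of the glutathione and thioredoxin families 30 were measured and 0 were called by their brightest probe set, while 1 further probe set was. The share of all probe sets called was 1.4%. With the block 4 of 30 were, against 4.49% of all probe sets. Of these the transferases Gsta3 (-0.79, block limma adjusted p = 0.0242), Gstt3 (-0.89, 0.00155) and Gstk1 (-0.56, 0.0475) were lower in jejunum, and Dpep1, a brush border dipeptidase, was higher (0.58, 0.00487). NADPH supply genes (8 of 9 measured) had 0 called and a median of -0.25. Other selenoproteins and their synthesis genes (15 of 18) had 0 called and a median of 0.20. Of these 14 of 15 were above 0, where 40.2% of all probe sets lay below 0. With the block 1 NADPH supply gene and 1 gene of the selenoprotein list were called, both higher in jejunum, against 4.49% of all probe sets. In both genotype contrasts 0 genes of these 4 lists were called.

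Markers of cell types moved between the segments too. Paneth markers (4 of 5 on the array) summed to 11896 to 28925 in b/b and 16521 to 40520 in +/b jejunum, against 3386 to 8614 in b/b and 6108 to 14024 in +/b duodenum. In the average 3 of 3 tested were called higher, against 0.61% of all. In b/b rats mast cell markers summed to 1057 to 2045 in jejunum, against 408.4 to 1012 in duodenum, and crypt markers to 3739 to 5054, against 2201 to 3304. Of the 6 crypt genes tested, 4 were higher and 2 lower in b/b jejunum than in b/b duodenum. Enterocyte markers were all below 0, with a median of -0.29 and sums that overlapped, and 0 of 8 were called without the block and 2, Alpi and Treh, with it (limma adjusted p = 0.00654 and 0.00347). Cell cycle markers had a median of 0.76 with 7 of 8 above 0, and 0 were called by their brightest probe set without the block and 5 with it, all higher, while their sums overlapped. With the block 4.49% of all probe sets were called. The sum of exocrine pancreas markers (14 of 15) reached 9109 on 1 b/b duodenum array (replicate 3) and 189440 on 1 +/b duodenum array (replicate 2), while the remaining 10 arrays had 1285 to 2198. Without +/b duodenum replicate 2 the average change of Txn1 was -0.81 (limma adjusted p = 0.0208) that of Gpx4 -0.69 (0.0310) and that of Glrx -0.85 (0.0210), while Txnrd1, at -0.69, was no longer called (0.0598). That removal left b/b duodenum replicate 3 in the fit and also took out a rescaled array, so it does not isolate the pancreas signal. The part of the cell type markers, pancreas included, in the segment changes was not tested.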

How the data were processed

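The authors deposited 1 linear intensity for each probe set and array, made with MAS5 for 10 of the 12 arrays per the submitters' processing notes. Its version is not given in the sources used here. The labels' protocols name Trizol and a column clean-up for the RNA and biotin for the target. Each array was scaled here to a 2% trimmed mean of 500, since 2 arrays had been deposited at lower trimmed means. After removal of 57 control probe sets, those with a mean of at least 100 were tested on log2(signal + 16) with limma 3.58.1 (R 4.3.3), with 4 group means, eBayes with an intensity trend and two-sided p-values adjusted by the Benjamini-Hochberg method over 17694 probe sets, at a threshold of 0.05. Of the contrasts 2 set b/b against +/b (1 for each segment), 2 set jejunum against duodenum (1 for each genotype) and 1 took the genotype change in jejunum minus that in duodenum. An averaged segment contrast was added after the values were seen. The fit was tested on simulated data.

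By the annotation of the array 20826 probe sets had 1 gene, 436 had several and 9780 had none, and names were given to single-gene ones only. The brightest probe set stands for a gene. For 40 genes the gene ID was found in the RefSeq table (GRCr8). Members and lists were chosen with earlier results of these data known. A gene has its value on every array in the text if it was among the 5 of smallest p in a contrast or on a list of central genes, and other genes are given by counts, or by values picked with the results in view.

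The replicate is a group of rats, so p-values measure the spread between such groups. The series design states that each group gave both segments. The rat-group blocks pair duodenum and jejunum arrays of a genotype by replicate number. No label used here gives the rat group of an array. Deviations of such pairs from their group means correlated at 0.16 to 0.38 in b/b and 0.19 to 0.28 in +/b rats, each over 0.1. Same-numbered arrays of different genotypes, hence different rats, correlated at 0.14 to 0.45 (b/b duodenum with +/b jejunum) and 0.12 to 0.42 (both jejunum). For +/b duodenum with b/b jejunum it was 0.03 to 0.26, and for both duodenum -0.06 to 0.16. These correlations therefore do not identify the rat groups. Alternatives covered the pseudocount, the filter, the scaling, the trend, array weights, the block, single arrays and both unscaled arrays.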

Additional observations from a re-analysis of the deposited data

How the results depend on the processing

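Values are counts of member probe sets called and medians of the 40 genes. The values as deposited shift the median of all probe sets by 1.51 (b/b minus +/b in duodenum), 1.60 (segment in +/b), -1.55 (difference) and 0.84 (average). With them the duodenal genotype contrast had 1 call and a median of 1.77, the +/b segment contrast 13 calls and 1.51, the difference a median of -1.85, and the averaged segment contrast 0 calls and 0.66, with Glrx at 0.0823, Gpx4 at 0.11, Txn1 at 0.0203 and Txnrd1 at 0.19. The block moved the segment counts: in b/b rats 6 calls with the rat group fixed, 4 with it random and 4 with the replicate number as a block, in +/b rats 1 with each block, and in the average 9, 8 and 9. Array weights gave 6 calls and quantile normalization 2 in b/b rats, and median centring moved their median to -0.35. In the average there were 2 calls without the intensity trend and 2 without both unscaled arrays, and with quantile normalization Txn1 was not called (limma adjusted p = 0.0738). Leaving out each array in turn gave 0 to 2 calls in b/b rats and 1 to 6 in the average. The genotype contrasts kept 0 calls under every alternative run other than the values as deposited. With 3 arrays a group, a 2-fold genotype change was within the 95% interval of 8 of 40 genes in each segment.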

Other observations

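For the 7 genes with several probe sets past the filter, all probe sets of a gene had changes of the same sign for 2 genes in the duodenal genotype contrast and for 5 in the jejunal one. Signs differed for Gclc, Gstt2, Sqstm1, Srxn1 and Txnrd1 in the duodenal contrast and for Gstt2 and Txnrd1 in the jejunal one. In the averaged segment contrast all probe sets of a gene had the same sign for 2 genes, Glrx and Txnrd1.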
